A study of Mus musculus with 4 samples.

Results

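The genes described here are 38 listed names of the autophagy machinery, autophagy receptors and lysosomal proteins, each read by its brightest transcript cluster with a single gene symbol on mouse Affymetrix arrays. Vps34 is an older name of Pik3c3, which leaves 37 distinct genes. Optn and Bnip3l had no cluster with their symbol alone in the annotation used. The other 35 genes were measured, out of 22180 genes in all, and all 35 were among the 13258 genes whose mean level lay above the median of all clusters.

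RNA came from gastrocnemius muscle of mice, and a single array stands for each of the 4 groups. They were mice lacking KLF15, a zinc-finger transcription factor, in skeletal muscle only (KO) after streptozotocin (STZ), wild-type (WT) mice after STZ, KO mice after vehicle and WT mice after vehicle. STZ, which destroys the insulin-producing beta cells, was injected into the abdomen in 5 consecutive daily doses of 50 mg/kg, vehicle was sodium citrate alone, and muscle was taken 3 weeks after treatment. The strain, the age, the driver of the deletion and the number of animals behind each array were not stated in the labels used here. With 1 array per group no difference has a replicate check and no test was made, so higher and lower describe single arrays.

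Autophagy wraps cytoplasm, protein aggregates or organelles in a double membrane and delivers them to the lysosome, where cathepsins digest the content. The ULK1 kinase complex starts the process, a class III phosphatidylinositol 3-kinase marks the growing membrane, and 2 ubiquitin-like conjugation systems attach proteins of the LC3 and GABARAP family to its lipid, to which receptors bring cargo. In muscle the pathway clears mitochondria and proteins, and in fasting, denervation and diabetes it is known to contribute to loss of muscle mass together with the proteasome.

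Median intensities of the 4 arrays ran from 5.73 to 5.96, and percentile 95 was 179.4 for KO STZ, the lowest, and 206.8 for WT STZ, the highest. Klf15 itself had an intensity of 16.04 in KO STZ against 72.1 in WT STZ, and 19.8 in KO vehicle against 50.5 in WT vehicle, so both KO arrays lay below both WT arrays. The 10 markers of skeletal muscle fibres all passed the level filter, at intensities between 1187 and 8549. Differences are given on the scale log2(intensity + 3.69), whose added constant, the lower quartile of the whole table (percentile 25), damps changes of dim genes. A gene counts as called at 1.5-fold, which is 0.585 on that scale. Intensities of different genes are read by different probes and are not set against each other.

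The first comparison was KO against WT under STZ. In KO STZ 29 of the 35 genes were lower and 6 higher than in WT STZ, with a median log2 difference of -0.19. Called at 1.5-fold were 2 genes on the lower side, Gabarapl1 and Lamp2, and 0 on the higher side. Among all 13258 genes, 58.1% were below 0 and 41.8% above, 2.81% were called lower, 0.845% were called higher and the median was -0.048.

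The 35 genes are mostly bright, and bright genes as a whole were lower on the KO STZ array. Above level percentile 75 lay 34 of the 35 genes, Tfeb being the exception. The 7212 genes above that level had a median of -0.11, with 68.6% below 0. Of these 7212 genes 294 were called lower and 54 higher. When the arrays were quantile normalized, 19 of the 35 genes were below 0 and 16 above, with a median of -0.025. With a loess trend on level removed, 21 were below 0 and the median was -0.047. The shares of all genes and of bright genes below 0 under these scalings are not given here. The median of the list stayed below 0 in all 8 alternatives, but its size and the number of genes below 0 depended on how the arrays were scaled to each other. In each alternative that kept them 19 genes stayed below 0, among them the 5 LC3 and GABARAP genes, Atg3, Atg5, Atg10, Atg12, Ulk1, Lamp1 and Lamp2, and the 6 genes above 0 stayed above. The other 10 crossed 0 in at least 1 scaling, namely Ulk2, Becn1, Atg9a, Wipi1, Atg16l1, Sqstm1, Nbr1, Ctsb, Ctsd and Ctsl. Counts of genes staying on 1 side are not given here for all genes.

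**Figure D1:**
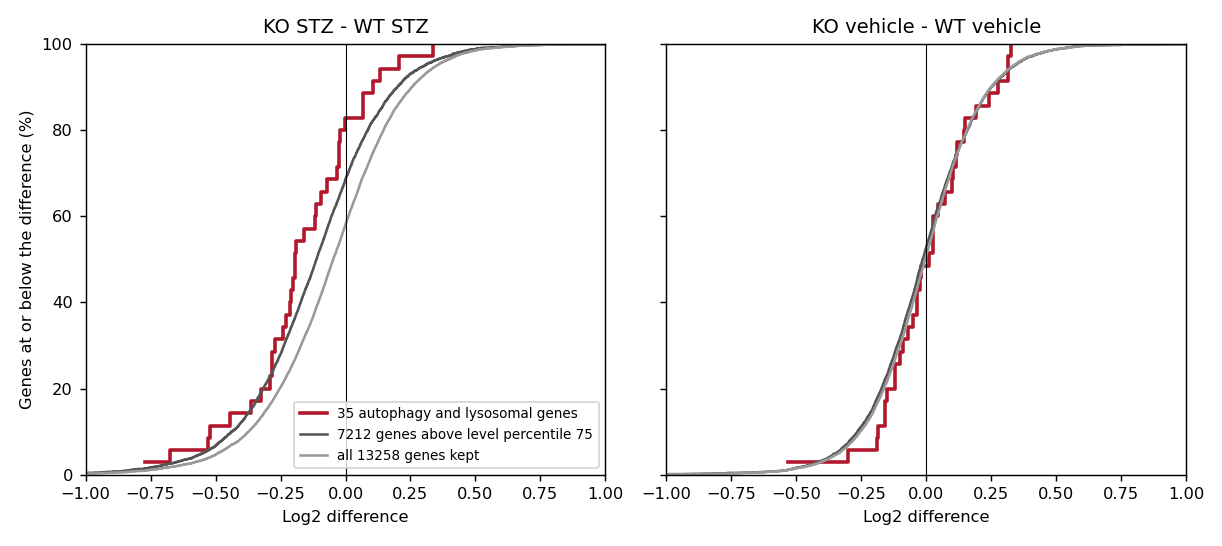
Share of genes (vertical axis, percent) at or below each log2 difference (horizontal axis) for the 35 autophagy and lysosomal genes, the 7212 genes above level percentile 75 and all 13258 genes kept, with 1 array per group. For KO STZ minus WT STZ (left) the red curve lies left of the curve of all genes over most of its length, with medians of -0.19 against -0.048; for KO vehicle minus WT vehicle (right) the medians are 0.012 and -0.0039.

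The LC3 and GABARAP family, whose members are coupled to the lipid of the autophagosome, had 5 of 5 genes lower in KO STZ, relative to WT STZ. This held with quantile normalization, loess and centring on bright genes, with a family median of -0.36 as reported and of -0.20, -0.25 and -0.25 under those 3 scalings. Gabarapl1, a GABARAP paralogue that acts late in autophagosome maturation, had an intensity of 53.3 in KO STZ against 93.6 in WT STZ, and 78.4 in KO vehicle against 74.4 in WT vehicle. KO STZ was the lowest array and WT STZ the highest, with the vehicle arrays close together between them. The KO STZ value was 56.9% of WT STZ, a log2 difference of -0.77, and it stayed past 1.5-fold in each of 8 alternative settings, at -0.80 to -0.64.

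Map1lc3b, which encodes LC3B, the usual marker of autophagosomes, had an intensity of 522.1 in KO STZ against 754.7 in WT STZ, and 558.7 in KO vehicle against 594.7 in WT vehicle. Here WT STZ stood above the other 3 arrays, and the KO STZ value was 69.2% of it. The log2 difference was -0.53, and -0.29 with quantile normalization. Gabarapl2 had 74.95 in KO STZ against 97.6 in WT STZ, and 62.1 in KO vehicle against 77.3 in WT vehicle. Each KO array was lower than the WT array of the same treatment, at 76.8% under STZ and 80.2% under vehicle.

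Gabarap, the founding member of its subfamily, had an intensity of 736.6 in KO STZ against 896.5 in WT STZ, and 811.1 in KO vehicle against 824.7 in WT vehicle. Its log2 difference under STZ was -0.28, and it was -0.050 with quantile normalization but -0.45 with the mean of its 2 clusters, the dimmer of which stood at -0.62. Map1lc3a, which encodes LC3A, had 99.4 in KO STZ against 118.0 in WT STZ, and 119.8 in KO vehicle against 117.5 in WT vehicle. KO STZ was the low array for Map1lc3a, and the other 3 lay within a few intensity units of each other.

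**Figure D2:**
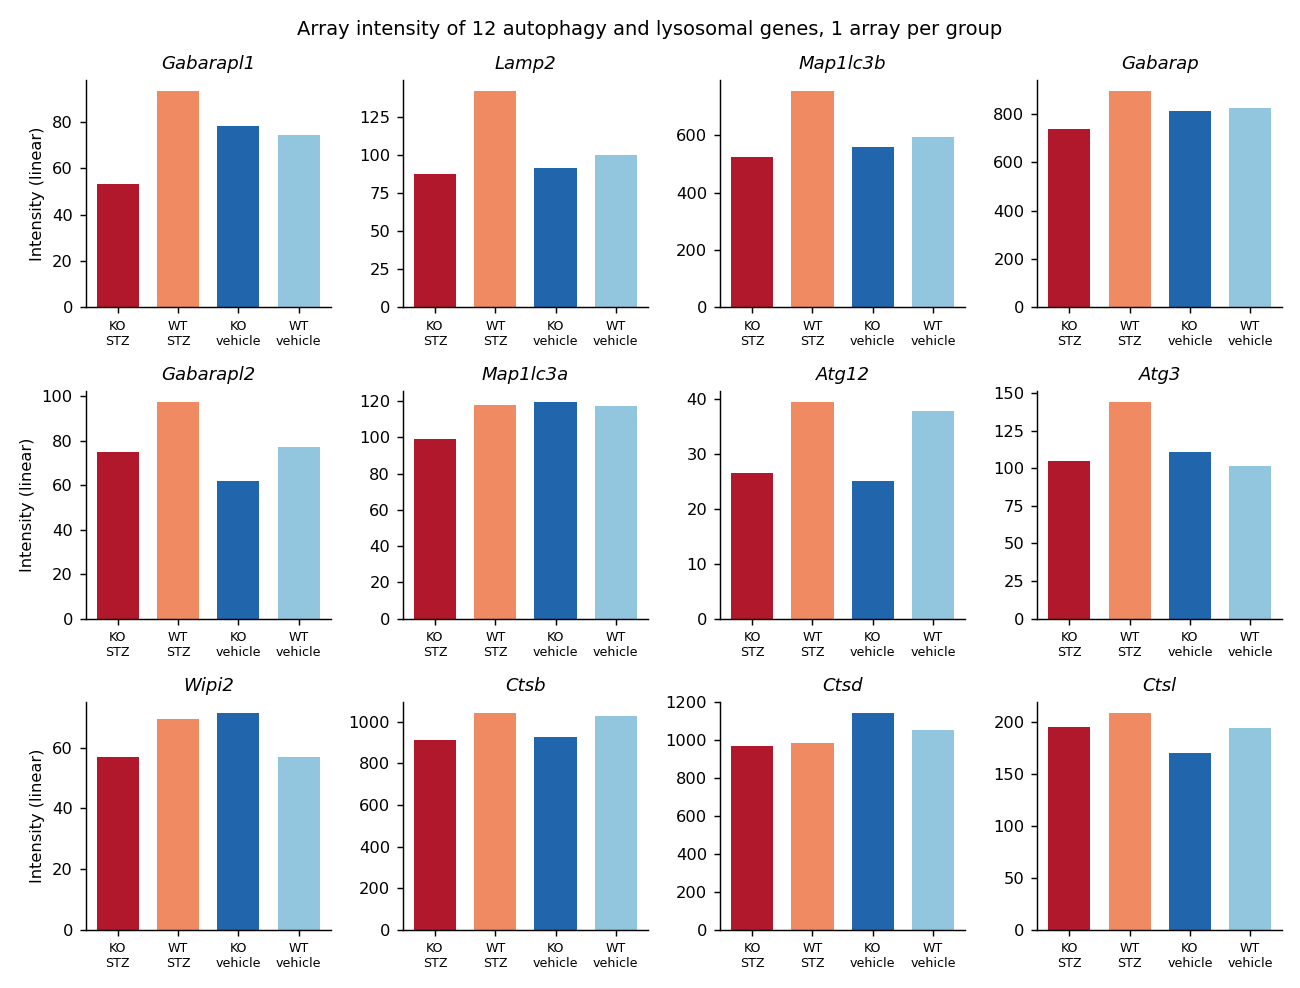
Linear intensity (vertical axis, each panel from 0) of 12 genes on the KO STZ, WT STZ, KO vehicle and WT vehicle arrays, 1 bar per array and no error bars because each group has 1 array. Gabarapl1 has its lowest bar in KO STZ (53.3) and its highest in WT STZ (93.6), Lamp2 stands out in WT STZ (142.3), and Atg12 is lower in both KO arrays (26.4 and 25) than in both WT arrays (39.5 and 37.8).

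The promoter windows of the 2 called genes are shown here because these genes had the differences past 1.5-fold. They are RefSeq windows of GRCm38.p6, written 5′ to 3′ on the strand of the gene, from 250 bases before the annotated start to 50 bases after it. Capitals mark GGGTG or its reverse complement CACCC, the core of motifs bound by KLF factors, and TAAACA, a short form of the FOXO motif. Gabarapl1 lies at chr6:129532942-129533241 on the plus strand and Lamp2 at chrX:38456411-38456710 on the minus strand.
Gabarapl1: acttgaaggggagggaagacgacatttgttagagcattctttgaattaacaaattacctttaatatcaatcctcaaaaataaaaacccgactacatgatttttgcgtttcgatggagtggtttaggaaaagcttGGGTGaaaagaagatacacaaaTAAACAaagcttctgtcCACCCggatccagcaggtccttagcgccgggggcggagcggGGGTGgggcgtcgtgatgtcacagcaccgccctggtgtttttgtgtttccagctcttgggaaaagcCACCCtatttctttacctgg
Lamp2: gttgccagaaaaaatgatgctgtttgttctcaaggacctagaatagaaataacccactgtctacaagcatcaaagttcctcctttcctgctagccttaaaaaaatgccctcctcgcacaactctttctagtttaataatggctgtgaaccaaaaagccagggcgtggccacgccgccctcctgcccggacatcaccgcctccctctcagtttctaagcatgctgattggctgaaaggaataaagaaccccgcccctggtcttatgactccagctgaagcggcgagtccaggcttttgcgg
The Gabarapl1 window holds 4 GGGTG matches over both strands and 1 TAAACA match, and the Lamp2 window holds 0 of either.

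Windows were found for 28 of the 35 genes, 32 windows in all. Those of Rb1cc1, Becn1, Pik3c3, Atg12, Atg16l1, Map1lc3a and Ctsb were not used here. GGGTG, searched on both strands, was held by 19 of the 32 windows (59.4%), against 57.5% of all 32851 promoter windows. The FOXO motif GTAAACA was in 0 of the 32 windows and in 3.65% of all windows. Its shorter form TAAACA, which lies inside GTAAACA and was added after the sequences had been read, was in 5 of 32 and in 13.4% of all windows.

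CACGTG, the core of the CLEAR element through which TFEB acts on lysosomal genes, was in 8 of the 32 windows (25%) and in 7.15% of all windows. The longer form TCACGTG, which contains the core, was in 5 windows of these genes (15.6%) and in 3.77% of all windows. The genes with the core were Atg14, Atg3, Atg5, Atg7, Bnip3, Ctsd, Ctsl and Lamp1. The stretches below show the sites of a lysosomal membrane gene, a conjugation gene and a cathepsin gene, with CACGTG in capitals. Lamp1 lies at chr8:13159091-13159160 on the plus strand, Atg3 at chr16:45158726-45158772 on the plus strand and Ctsd at chr7:142387911-142387934 on the minus strand, all in GRCm38.p6 and from RefSeq.
Lamp1: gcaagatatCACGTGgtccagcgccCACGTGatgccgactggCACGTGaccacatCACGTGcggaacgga
Atg3: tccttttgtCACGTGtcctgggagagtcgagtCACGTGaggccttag
Ctsd: cccgcgtctCACGTGacccgttga
Lamp1 thus holds 4 copies of the core within 70 bases, and Ctsd has 1 further copy outside the stretch shown. In KO STZ against WT STZ the 8 genes with the core had a median log2 difference of -0.15, and the 20 genes with a window and no core had one of -0.20. Gabarapl1 and Lamp2 belong to the genes without it.

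Among the lysosomal genes, Lamp2, a membrane glycoprotein needed for fusion and for chaperone-mediated autophagy, differed most. Its intensity was 87.7 in KO STZ against 142.3 in WT STZ, and 91.7 in KO vehicle against 99.9 in WT vehicle, so the WT STZ array alone was high. The KO STZ value was 61.6% of WT STZ, a log2 difference of -0.68 that became -0.53 with quantile normalization, -0.54 with loess and -0.56 with centring on bright genes, each short of 1.5-fold. Lamp1, the companion membrane glycoprotein, stood at 81.7% of WT STZ.

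The 3 cathepsins on the list stood at -0.20 (Ctsb), -0.094 (Ctsl) and -0.024 (Ctsd) in the same comparison, and all 3 crossed 0 in at least 1 scaling. Ctsb, a cysteine protease, had an intensity of 909.8 in KO STZ against 1043 in WT STZ, and 926.1 in KO vehicle against 1028 in WT vehicle. Ctsd, an aspartic protease, had 970.1 in KO STZ against 986.6 in WT STZ, and 1144 in KO vehicle against 1054 in WT vehicle. Ctsl, a cysteine protease often high in wasting muscle, had 194.9 in KO STZ against 208.4 in WT STZ, and 170.0 in KO vehicle against 193.8 in WT vehicle. Across the 4 pairwise comparisons the cathepsins lay between -0.24, for Ctsd in KO STZ against KO vehicle, and 0.19, for Ctsl in the same comparison.

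Of the 9 conjugation genes, KO STZ was lower than WT STZ for 6 and higher for 3. Atg12, the ubiquitin-like protein that is joined to ATG5, had an intensity of 26.4 in KO STZ against 39.5 in WT STZ, and 25 in KO vehicle against 37.8 in WT vehicle. Both KO arrays lay well below both WT arrays, at 66.9% under STZ and 66.2% under vehicle. On the offset scale these differences were -0.52 and -0.53, just short of 1.5-fold. They share no array, and over the 8 alternatives they ran from -0.56 to -0.39 under STZ and from -0.58 to -0.39 under vehicle.

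Atg3, the enzyme that transfers LC3 to lipid, had an intensity of 105.1 in KO STZ against 144.4 in WT STZ, and 110.6 in KO vehicle against 101.9 in WT vehicle. As with Lamp2, the WT STZ array stood above the other 3, and the KO STZ value was 72.8% of it. Atg5, the partner of ATG12, was at 78.1% of WT STZ and Atg4a, a protease that trims the LC3 and GABARAP proteins, at 81.7%. Atg7, the activating enzyme of both conjugation systems, went the other way at 131.8%, with 23.5 in KO STZ and 17.8 in WT STZ. Atg4b, a related protease, was also on the higher side at 117.8%.

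The genes that start autophagy held 0 calls. The initiation complex had a median log2 difference of -0.19 in KO STZ against WT STZ, the same as the whole list, and the class III kinase complex one of -0.11. In the initiation complex, Ulk1, the kinase, was at 85.0% and Ulk2, its paralogue, at 97.7% of WT STZ. Rb1cc1, the scaffold FIP200, was at 87.3%, Atg13 at 86.5% and Ambra1, a regulator of both early complexes, at 105.1%. In the class III kinase complex, Becn1 was at 92.01%, Pik3c3, the catalytic subunit, at 89.1% and Atg14, which directs the complex to autophagy, at 105.6%. None of these 8 genes reached 1.5-fold in any of the 5 comparisons.

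Of the genes for membrane growth, Atg9a, a lipid scramblase, was at 91.96% and Atg2a, a lipid transfer protein, at 108.6% of WT STZ. Wipi1 was at 98.2% and Wipi2, which recruits the conjugation machinery, at 81.9%. Among the cargo receptors, Sqstm1, which encodes p62, was at 98.6%, Nbr1 at 95.2% and Bnip3, a mitophagy receptor, at 86.3%. Tfeb, the regulator of lysosomal genes, had an intensity of 9.02 in KO STZ and 10.8 in WT STZ, and KO STZ was the lowest of its 4 readings. The receptors and Tfeb stood at -0.21 to -0.020 on the log2 scale, and with quantile normalization 2 of the 3 receptors were above 0.

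**Figure D3:**
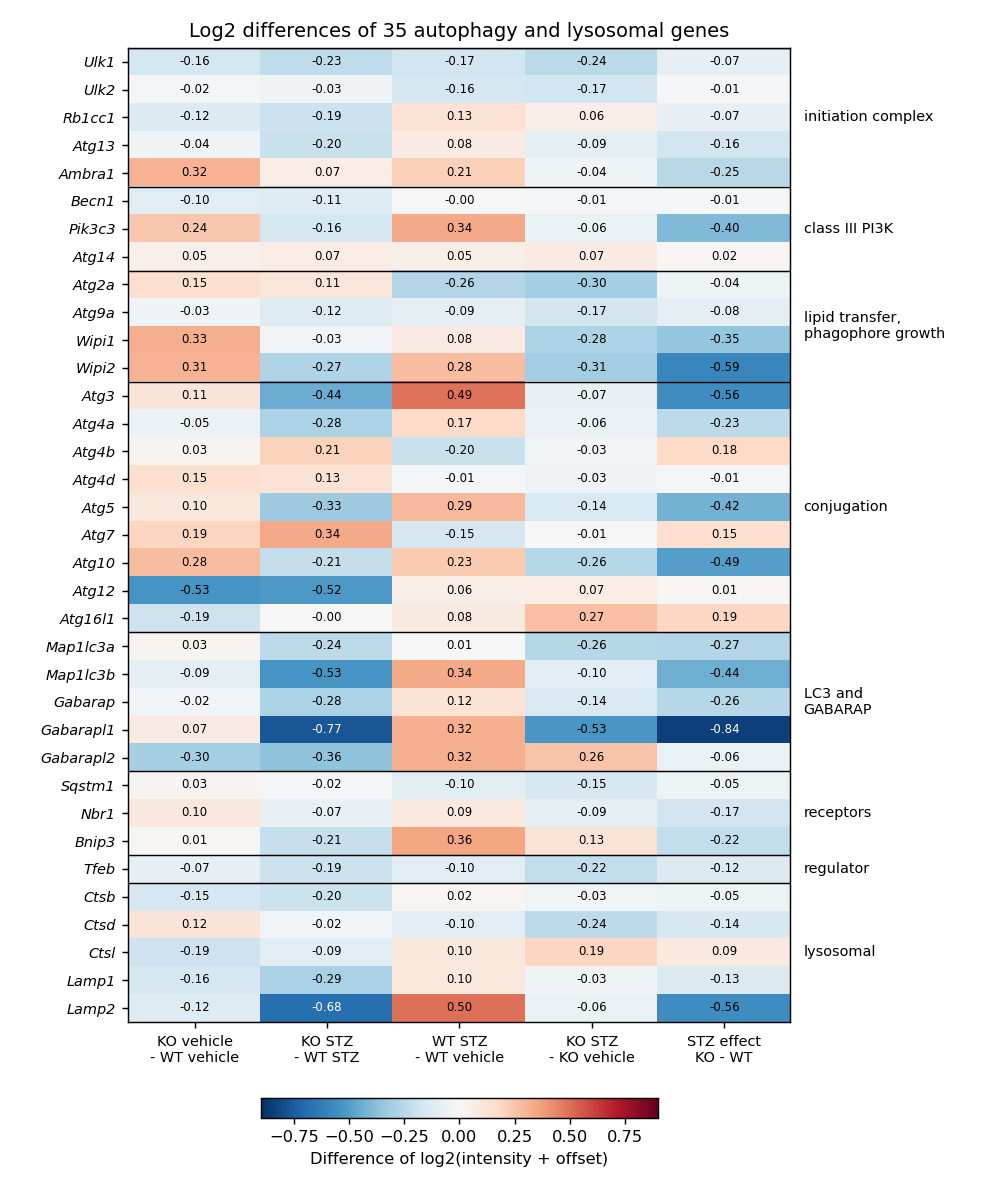
Differences of log2(intensity + offset) for the 35 genes (rows, grouped by role) in the 4 pairwise comparisons and in the difference between the STZ effects (columns), with blue for lower and red for higher in the first-named group. The deepest blue cells are those of Gabarapl1 (-0.77 in KO STZ minus WT STZ, -0.84 for the STZ effects) and Lamp2, and the Atg12 row is blue in both genotype columns.

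The second comparison was KO against WT under vehicle. The list as a whole stood near 0, with 18 genes higher and 17 lower, a median of 0.012 and 0 genes called at 1.5-fold in either direction. Over all genes 50.8% were below 0 and 49.1% above, 0.777% were called lower and 0.581% called higher, and the median was -0.0039. Atg12 had the lowest difference at -0.53, followed by Gabarapl2 at -0.30. Highest were Wipi1 at 0.33, Ambra1 at 0.32, Wipi2 at 0.31 and Atg10, a conjugating enzyme for ATG12, at 0.28.

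The genotype comparisons under STZ and under vehicle use different arrays. In both, 17 of the 35 genes were lower in KO (48.6%), against 32.7% of all genes and 40.8% of genes above level percentile 75. These 17 included Atg12, Gabarapl2, Map1lc3b, Ulk1, Rb1cc1, Lamp1 and Lamp2, which were below 0 in both comparisons under all 8 alternatives. Another 6 genes (17.1%, against 23.7% of all genes) were higher in KO in both, namely Ambra1, Atg14, Atg2a, Atg4b, Atg4d and Atg7. The other 12 were higher in KO under vehicle and lower under STZ, among them Gabarapl1, Atg3, Wipi2 and Sqstm1 (34.3%, against 25.4% of all genes and 27.8% of the bright genes). The reverse pattern was held by 0 of the 35 genes and by 18.05% of all genes.

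The third comparison was STZ against vehicle in WT muscle. Of the 35 genes 24 were higher and 11 lower in WT STZ, the median was 0.081, and 0 were called at 1.5-fold. Of all genes 51.5% were above 0 and 48.3% below, 1.27% were called higher and 0.445% called lower, with a median of 0.0075, while for the bright genes the median was 0.035. The number of genes above 0 ran from 21 to 24 over the 8 alternatives, among which the setting with the higher level filter tested 34 genes. The largest differences were those of Lamp2 at 0.50 (142.3 in WT STZ, 99.9 in WT vehicle) and Atg3 at 0.49 (144.4 and 101.9).

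All 5 genes of the LC3 and GABARAP family were above 0 in WT STZ, and 4 of 5 with quantile normalization, loess and centring on bright genes. Map1lc3b stood at 0.34, Gabarapl1 and Gabarapl2 at 0.32, Gabarap at 0.12 and Map1lc3a at 0.0052. Bnip3, the mitophagy receptor, was at 0.36 and Pik3c3 at 0.34. On the lower side were Atg2a at -0.26, Atg4b at -0.20 and Ulk1 at -0.17.

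The fourth comparison was STZ against vehicle in KO muscle. Of the 35 genes 28 were lower and 7 higher in KO STZ, with a median of -0.070 and 0 genes called. Of all genes 57.0% were below 0 and 42.8% above, 0.656% were called lower and 0.445% called higher, and the median was -0.032. The genes above level percentile 75 had 63.9% below 0 and a median of -0.063, close to that of the list. With loess or centring on bright genes 18 of the 35 were below 0. Gabarapl1 had the lowest difference at -0.53 (53.3 in KO STZ, 78.4 in KO vehicle), followed by Wipi2 at -0.31, Atg2a at -0.30 and Wipi1 at -0.28. Above 0 were Atg16l1, part of the complex that places LC3 on the membrane, at 0.27, Gabarapl2 at 0.26, Ctsl at 0.19 and Bnip3 at 0.13.

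The last comparison set the STZ effect in KO against that in WT. It uses the same 4 arrays as the comparisons above and adds no new measurement, just as WT STZ and KO STZ each enter a genotype and a treatment comparison. The difference was below 0 in 29 of 35 genes, with a median of -0.13, while over all genes 57.1% were below 0, 42.9% above, and the median was -0.048. The 7212 genes above level percentile 75 had 65.8% below 0 and a median of -0.098, and 338 of them passed 1.5-fold lower and 84 higher. With quantile normalization 18 of the 35 were below 0 and the median was -0.0043, and with loess or centring on bright genes 19 were below 0. On the lower side 2 genes passed 1.5-fold, Gabarapl1 at -0.84 and Wipi2 at -0.59, against 3.91% of all genes, and 0 passed on the higher side, against 1.76%. Wipi2 had 56.9 in KO STZ against 69.5 in WT STZ, and 71.5 in KO vehicle against 56.8 in WT vehicle, so its 4 values form 2 close pairs, and its difference fell short of 1.5-fold under the 3 other scalings and with an offset of 16. Close behind were Atg3 at -0.56, Lamp2 at -0.56 and Atg10 at -0.49, while Atg16l1 at 0.19 and Atg4b at 0.18 were highest.

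Of the 35 genes, 17 were lower after STZ in KO and higher after STZ in WT, and 0 had the opposite pattern. The first pattern was held by 28.6% of all genes and 33.6% of the bright genes. The opposite one was held by 19.9% of all genes and 12.8% of the bright genes. In every alternative setting the first pattern held for 9 of the 17, namely Wipi1, Wipi2, Atg3, Atg5, Atg10, Map1lc3b, Gabarap, Gabarapl1 and Nbr1. The shares of all genes and of bright genes that kept it in every setting are not given here, so this count has no background. Higher after STZ in both genotypes were 7 genes, Rb1cc1, Atg14, Atg12, Atg16l1, Gabarapl2, Bnip3 and Ctsl (22.8% of all genes). Lower after STZ in both were 11, among them Ulk1, Ulk2, Becn1, Sqstm1 and Ctsd (28.3% of all genes). By array, 17 genes were lowest in KO STZ (33.7% of all genes) and 17 were highest in WT STZ (32.2% of all genes), while 1, Atg14, was highest in KO STZ (19.6%). KO vehicle was the highest array for 12 genes (25.1% of all) and the lowest for 5 (21.7%), WT STZ the lowest for 4 (24.2%), and WT vehicle the highest for 5 (23.2%) and the lowest for 9 (20.4%).

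**Figure D4:**
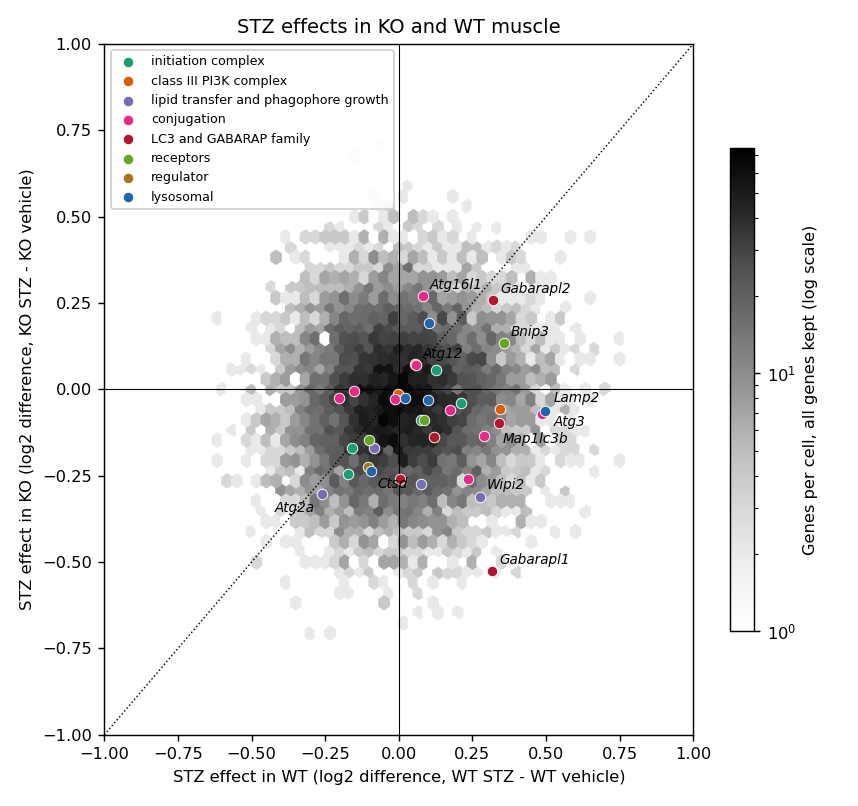
STZ effect in KO muscle (vertical axis, log2 difference) against that in WT muscle (horizontal axis), with the 35 genes coloured by role over the density of all 13258 genes kept (grey, log scale, genes beyond 1 on either axis not drawn) and a dotted line of equal effects. Most coloured points lie below the line, Gabarapl1 (-0.53 in KO, 0.32 in WT) farthest, while Gabarapl2 (0.26 and 0.32) lies next to it.

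The rest of the pathway was read from further lists. Of 34 further autophagy genes 32 were kept, and 26 of them were below 0 in KO STZ against WT STZ, with a median of -0.15, 2 called lower and 0 called higher. For this and the lists below, the shares over all genes were 58.1% below 0 and 2.81% called lower, and the bright genes had 68.6% below 0 with a median of -0.11. The further lists were not recomputed under other scalings. The called genes were Depp1, a FOXO target linked to autophagy, at -0.67 (61.6 in KO STZ, 99.9 in WT STZ) and Wdr45b, a relative of the WIPI proteins, at -0.63. Pik3r4, the regulatory subunit of the class III kinase, stood at 0.40 under STZ and 0.47 under vehicle. Of 27 genes for the lysosomal membrane and its proton pump 25 were kept, with 21 below 0, a median of -0.21 and 1 called lower, the pump subunit Atp6v1b2 at -0.68. Another pump subunit, Atp6v1h, was at 0.67 in WT STZ against WT vehicle, and Npc1, a lysosomal cholesterol transporter, was at -0.70 in KO STZ against KO vehicle.

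The lysosomal hydrolases outside the list had a median nearer 0 in KO STZ against WT STZ. Bright genes as a whole were lower in that comparison, and some of these hydrolases were dim. Arsa (10.01 in KO STZ, 6.85 in WT STZ) stood at 0.38 and Ctsk (11.4 and 13.6) at -0.20. The lists were not matched for level, so the part of level in the hydrolase median was not tested. Of 32 genes 27 were kept, 14 were below 0 and 13 above, the median was -0.021, and 3 were called lower and 0 higher. The called genes were Ctsc, which encodes dipeptidyl peptidase I, at -0.61, Ctss, a cathepsin of antigen-presenting cells, at -0.60 and Asah1, the acid ceramidase, at -0.59. Ctss had 25.6 in KO STZ against 40.7 in WT STZ, and 27.1 in KO vehicle against 21.6 in WT vehicle, so it was highest in WT STZ, at 0.81 against WT vehicle. Of the 12 macrophage markers 11 were kept, and Cd14 was below the filter. Their summed intensity was 454.3 in KO STZ against 425.7 in WT STZ, and 382.1 in KO vehicle against 350.7 in WT vehicle. The single markers were split under STZ, with 6 of the genotype differences above 0 and 5 below. They ran from -0.40 for Adgre1 to 0.44 for Fcgr1. Lyz2 was the largest part of the sum, at 153.4 in KO STZ and 160.2 in WT STZ. The part of these markers in the hydrolase values was not tested. In whole tissue, fewer cells of a type and less RNA per cell cannot be told apart.

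A list of 29 genes, all kept, held upstream regulators of autophagy together with the muscle ubiquitin ligases Fbxo32 and Trim63. Of the 29 genes 18 were below 0 in KO STZ against WT STZ, with a median of -0.11. There was 1 called lower and 0 called higher. Fbxo32, the ubiquitin ligase atrogin-1 and a FOXO target in wasting muscle, was the called gene at -0.70, with 427.0 in KO STZ against 695.8 in WT STZ, and 529.5 in KO vehicle against 541.5 in WT vehicle. Its order of arrays was that of Gabarapl1 and Map1lc3b at the extremes, with KO STZ lowest and WT STZ highest. Trim63, the other ligase, stood at -0.21 in KO STZ against WT STZ. The FOXO genes on the list were split in that comparison, with Foxo1 at 0.56, Foxo3 at 0.29 and Foxo4 at -0.42. In WT STZ against WT vehicle Foxo1 stood at -0.46. A part of FOXO factors in these values was not tested. Rragc, a GTPase that brings mTORC1 to the lysosome, stood at -0.58. Prkag3, the fast-muscle AMPK subunit, was at -0.66 in KO vehicle against WT vehicle and -0.047 in KO STZ against WT STZ.

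Other cell types were followed through their markers. Adipocyte markers, of which 6 of 8 were kept, had a summed intensity of 885.0 in KO STZ against 1363 in WT STZ, and 1111 in KO vehicle against 1097 in WT vehicle. Fabp4 made up most of each sum, with 763.2 in KO STZ against 1194 in WT STZ, and was the only one of the 6 that was highest in WT STZ. The other 5 were highest in KO vehicle, and all 6 but Slc36a2 were lowest in KO STZ. The median log2 difference of the 6 was -0.45 in KO STZ against WT STZ, and their part in the autophagy values was not tested. The muscle fibre markers summed to 51240 in KO STZ against 51164 in WT STZ, and 51882 in KO vehicle against 52706 in WT vehicle. Single fibre markers differed more than the sums. They ran from -0.18 (Mb) to 0.46 (Myh1) in KO STZ against WT STZ. In KO vehicle against WT vehicle they ran from -0.19 (Pvalb) to 0.48 (Myh2). Among the fibroblast markers, the collagens Col1a1 and Col3a1 were past 1.5-fold higher in KO under both treatments, at 0.92 and 0.76 under STZ and 0.76 and 0.64 under vehicle, and their part in the autophagy values was not tested. The summed fibroblast markers lay between 4548 (KO STZ) and 4057 (WT vehicle), endothelial markers between 921.8 (KO vehicle) and 773.6 (WT STZ), and satellite cell markers between 61.8 (WT STZ) and 54.9 (WT vehicle). All 8 endothelial markers were above 0 in KO vehicle against WT vehicle, with a median of 0.21, against 49.1% of all genes. Under STZ 5 were above 0 and 3 below, with a median of 0.040. Their part in the autophagy values was not tested. The lowest reading of a kept marker in the 6 lists was 6.37, which the level filter largely sets and which does not show that a cell type was present.

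**Figure D5:**
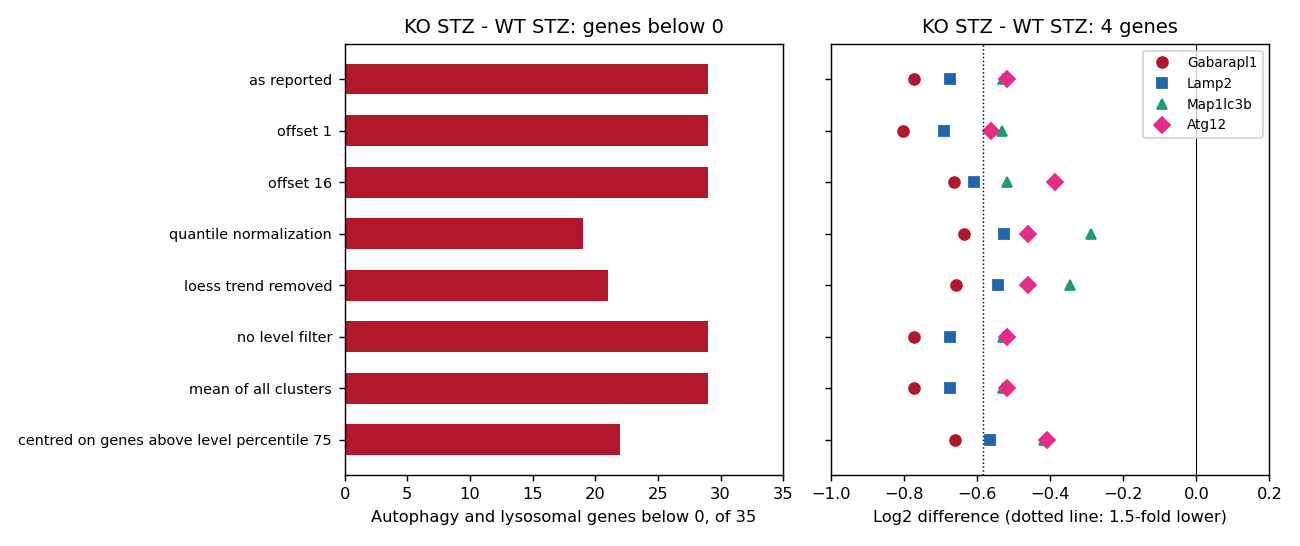
Left, number of the 35 genes below 0 in KO STZ minus WT STZ (bars from 0) as reported and under 7 alternatives that keep all 35 genes. Right, the log2 difference of Gabarapl1, Lamp2, Map1lc3b and Atg12 in the same comparison, with a dotted line at 1.5-fold. The count is 29 except with quantile normalization (19), loess (21) and centring on bright genes (22), and Gabarapl1 stays left of the dotted line throughout.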

How the data were processed

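The authors deposited a table of linear intensity values, 1 per transcript cluster and array, for 41345 clusters, made from biotin-labelled cRNA of 4 ug total RNA per the labels' protocols. Background correction, summary and normalization are not given in the labels. Intensities were turned into log2(intensity + 3.69); array medians on that scale lay within 0.035, under the limit of 0.1 for centring, so arrays were not rescaled. Of the clusters 23521 had 1 gene symbol, 1814 several and 16010 none; 23328 were matched to RefSeq by Entrez number. A gene was read by its brightest cluster and kept above an intensity of about 5.81. Genes and lists were chosen with earlier results of these data known. All measured genes of the list could be named, and of each further list the 3 with the largest difference in a pairwise comparison. Trim63, Foxo1, Foxo3 and Foxo4 were named besides. Counting was tested on simulated data. With 1 array per group no test, standard error or p-value was made. Python 3.11.15, pandas 2.3.3 and statsmodels 0.14.6 were used. Alternatives were other offsets, normalizations, filters and cluster summaries, and 1 added after seeing the data, centring on genes above level percentile 75.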

Additional observations from a re-analysis of the deposited data

Results flagged for a closer look

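Gabarapl1 was lower after STZ in KO (-0.53) and higher after STZ in WT (0.32), a difference between the effects of -0.84 on the log2 scale. Wipi2 had the same pattern, with -0.31 in KO and 0.28 in WT and a difference of -0.59. Both were picked out because the STZ effects of the genotypes point in opposite directions and differ by more than 1.5-fold. With 1 array per group the difference was not tested. Such a difference on the lower side was found in 3.91% of all genes, whatever the signs of the effects. Among the 7212 genes above level percentile 75 it was found in 338.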

How the results depend on the processing

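Counts and medians of the list, 200 values in all, were recomputed under 8 alternatives. Of these, 174 stayed within 1.5 times the reported count or within 0.1 of the reported median. None of the medians changed sign, which a count cannot do. The 26 values that moved further were differences under STZ and came mostly from scaling. With quantile normalization KO STZ against WT STZ had a median of -0.025, 16 genes above 0, 19 below and 1 called lower; KO STZ against KO vehicle had 16 above 0; the difference between STZ effects had a median of -0.0043, 17 above and 18 below. With loess KO STZ against WT STZ had a median of -0.047, 14 genes above 0 and 1 called lower; with centring on bright genes, chosen after seeing the data, these were -0.081, 13 and 1. Under both, KO STZ against KO vehicle had 17 above and 18 below, and the difference between STZ effects 16 above and 19 below. Under these 3 scalings and an offset of 16 the last comparison had 1 gene called lower, Gabarapl1. The cause was not tested. Of 1395 single-gene values 1247 moved by less than 0.1 on the log2 scale. A reversal was counted only for values reported past 1.5-fold, so few could reverse, and 0 did. Genes that crossed 0 in at least 1 setting were 3 for KO against WT under vehicle and 10 under STZ. For STZ against vehicle they were 3 in WT and 10 in KO, and for the difference between STZ effects 11. No paired analysis was possible because the groups share only replicate number 1, and leaving out an array would remove its group. Precision is limited by the array number and cannot be estimated.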

Other observations

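Gabarap was the only gene of the list with more than 1 cluster of its own symbol. Its dimmer cluster had an intensity of 122.9 in KO STZ against 190.4 in WT STZ, and 117.8 in KO vehicle against 127.3 in WT vehicle. This cluster differed by -0.62 on the log2 scale in KO STZ against WT STZ and by 0.57 in WT STZ against WT vehicle, while the brighter cluster used above differed by -0.28 and 0.12. The 2 clusters therefore gave the same direction in these comparisons with different sizes, and in KO STZ against KO vehicle they stood at 0.059 and -0.14. Which transcripts or pseudogene copies each cluster reads was not tested.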
